A study of Homo sapiens with 6 samples.

Results

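Nuclear receptors are transcription factors that bind DNA, and many of them are switched by small fat-soluble ligands such as steroids, retinoids, vitamin D, thyroid hormone, bile acids and fatty acids. Steroid receptors wait in complexes with HSP90 chaperones, whereas receptors such as the PPARs, LXRs, VDR and retinoic acid receptors bind DNA as heterodimers with an RXR. In liver, HNF4A, FXR (NR1H4), PXR (NR1I2), CAR (NR1I3), SHP (NR0B2) and LRH-1 (NR5A2) are known for governing bile acid, drug and lipoprotein genes. The levels of 46 human nuclear receptor genes, listed by symbol, were examined in cells labelled HepG2 that were treated with polydatin (PD). Of the 46, 39 have a row among the 28563 genes analysed, and the other 7 (RXRG, NR2E1, ESRRB, ESRRG, PGR, NR5A1 and NR0B1) were not analysed here.

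HepG2 is an established human hepatocellular carcinoma (HCC) cell line, and PD is a plant compound dissolved in DMSO. Dishes were given PD or DMSO alone for 24 h, with 3 dishes and 3 libraries of poly(A) RNA per group. The labels give the dose of PD as 336 µM, and the methods of the study give a lower one. The dishes were plated from 1 line and split at random, so the p-values measure the spread between dishes. Values are FPKM, which scale a gene's fragments by gene length and by library total, and these totals were 16308476 to 18071632 fragments. All 6 libraries carried few signs of a hepatocyte: of 26 hepatocyte markers, 14 have a row, and only CPS1, RBP4, CEBPA and FOXA1 reached 1 FPKM in any library. The summed FPKM of these markers was 223 to 230 in DMSO and 110 to 115 in PD, almost all of it from CPS1, which fell from 225 ± 3.46 to 109 ± 2.60 FPKM (SD, n = 3 each). The other 3 tested hepatocyte markers rose (limma). CEBPA went from a mean of 0.260 to 1.27 FPKM, RBP4 from 0.391 to 1.299 FPKM and FOXA1 from 0.873 to 1.39 FPKM. In DMSO, CEBPA and RBP4 lay under the 0.5 FPKM minimum for testing, which is a mean over all 6 libraries. They were tested only because PD was high, so a fall from these levels would not have been tested. The 10 other markers with a row were not tested. Of 7 general epithelial markers 5 reached 1 FPKM, as did 3 of 10 fibroblast or mesenchymal, 0 of 7 endothelial and 0 of 7 blood cell markers. The summed fibroblast or mesenchymal markers were 25.4 to 26.9 FPKM in DMSO and 34.0 to 35.6 FPKM in PD, and of these only VIM was called, at means of 20.7 and 29.6 FPKM. Among the epithelial markers KRT7 fell from a mean of 60.3 to 27.4 FPKM, while KRT8 rose from 50.1 to 68.9 FPKM and CLDN4 from 7.75 to 11.99 FPKM (limma). Whether these marker shifts bear on the receptor values was not tested. The name HepG2 is therefore used as a label.

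A receptor was called expressed at a mean of at least 1 FPKM in either group, and 25 of the 39 were. The most abundant in DMSO were ESRRA at 28.7 ± 1.71 FPKM and NR2F6 at 25.2 ± 1.76 FPKM (SD, n = 3 each). ESRRA encodes estrogen-related receptor alpha, an orphan receptor that drives mitochondrial genes, and NR2F6 is an orphan receptor of the COUP-TF family. The libraries of these 2 did not overlap each other or those of the next receptor. Behind them came NR3C1 and NR2F1 at 18.5 FPKM each and RXRB, NR1H2, NR1D2 and RXRA at 14.4 to 15.9 FPKM, and neighbours in this order overlapped. The lowest of the 25 were HNF4G (2.42 FPKM), PPARG (1.55 FPKM) and NR6A1 (1.02 FPKM). The FPKM of all 39 receptors summed to 252 to 264 in DMSO libraries and 248 to 259 in PD libraries and these ranges overlapped. In PD, ESRRA and NR2F6 kept ranks 1 and 2, VDR moved from rank 12 to 4, and NR3C1 moved from rank 3 to 8 and RARG from rank 10 to 18.

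**Figure D1:**
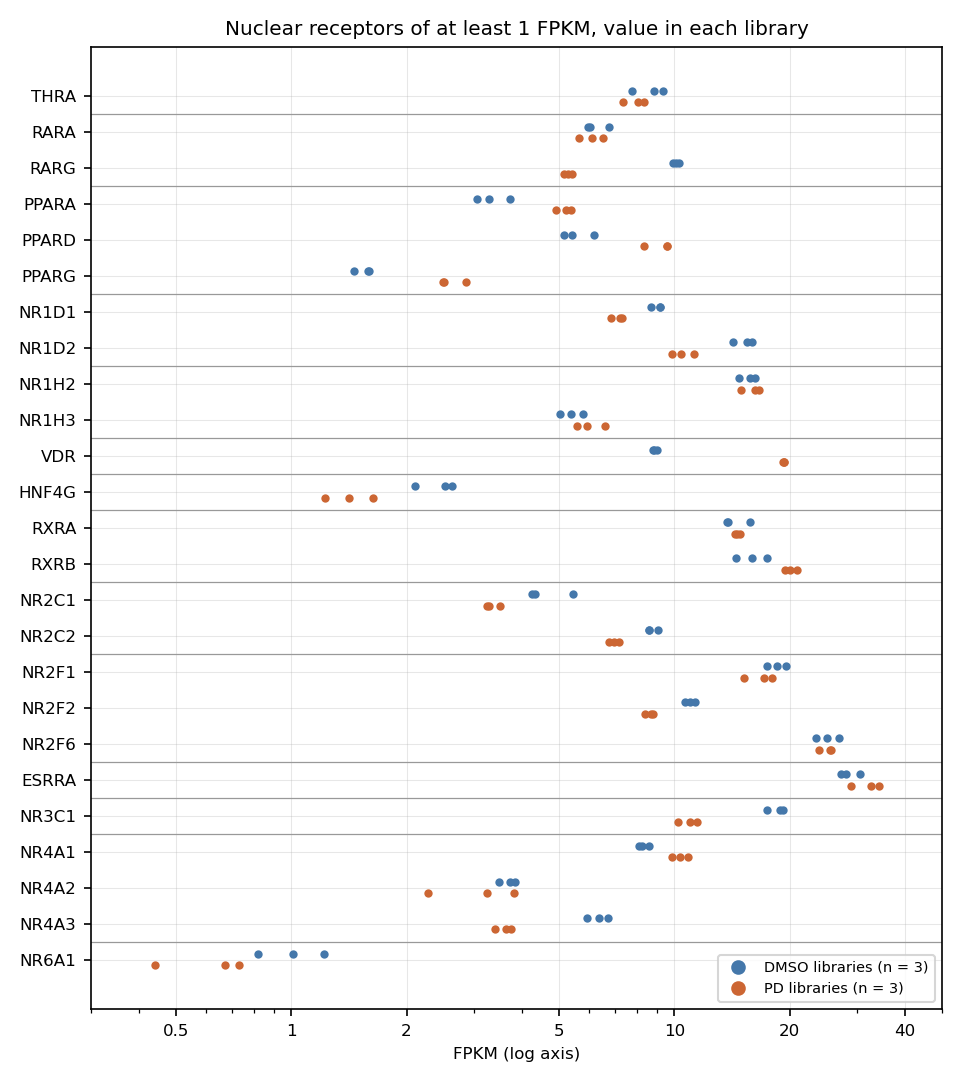
FPKM (log axis) of the 25 expressed nuclear receptors, 1 point per library, with 3 DMSO libraries in blue and 3 PD libraries in orange; thin lines part the receptor families. The VDR points of PD lie at 19.2 to 19.4 FPKM, apart from 8.81 to 8.99 FPKM in DMSO, while those of NR2F6 and RXRA overlap.

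The receptors known for hepatocyte functions were near the limit of detection, with or without PD. HNF4A, which keeps hepatocytes differentiated, had 3, 13 and 2 fragments in the DMSO libraries and 10, 5 and 4 in the PD libraries. The bile acid receptor NR1H4 had 1 fragment in all 6 libraries together, and NR0B2, which FXR induces, likewise had 1. NR1I2, the xenobiotic sensor PXR, had at most 1 fragment in a library. No fold change is given for these 3 genes, since a count of 0 allows up to 3 fragments in a library. For NR5A2 the DMSO libraries held 10 to 17 fragments and the PD libraries 13 to 24, and for NR1I3 they held 5 to 16 and 8 to 18. In both genes the groups overlapped. About 20.4% of the exon bases of NR1I3 are shared with TOMM40L on the opposite strand, so even these fragments are uncertain.

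In all, 14 receptors had a mean under 0.5 FPKM and were not tested on the FPKM scale, and 5 of them (NR1H4, NR1I2, NR0B2, NR2E3 and ESR2) had under 10 fragments in each library. The estrogen receptors were near the limit of detection, with 10 to 15 fragments of ESR1 and 4 to 8 of ESR2 in the DMSO libraries. Among the receptors under 0.5 FPKM, ESR1 and NR3C2 were the ones whose groups did not overlap. NR3C2 encodes the mineralocorticoid receptor, which binds aldosterone and cortisol. It had 0.350, 0.172 and 0.248 FPKM in DMSO and 0.603, 0.587 and 0.501 FPKM in PD, from 19 to 40 and 54 to 72 fragments. With limma voom on fragments, a test that weights genes by their counts, its log2 fold change was 1.18 (standard error 0.24, adjusted p = 0.00025). ESR1 fell to 4 to 8 fragments in PD, a voom log2 fold change of -1.18 (standard error 0.41, adjusted p = 0.0168). Voom took genes with at least 10 fragments in 3 libraries, and ESR1 met this only through DMSO, where it was high. A gene at its PD level in both groups would not have been tested, so this call is no independent support for a fall. Voom took 8 of the 14 low receptors and called NR3C2 and ESR1, against 62.7% of all 15068 genes that it tested (34.4% higher and 28.3% lower).

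**Figure D2:**
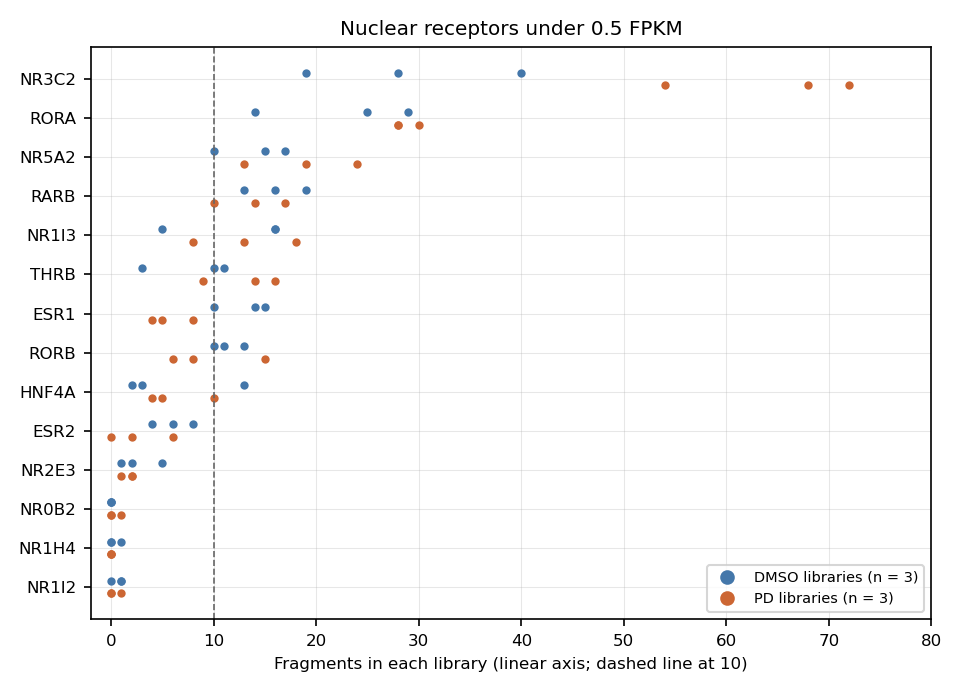
Fragments in each library (linear axis) for the 14 receptors with a mean under 0.5 FPKM, 1 point per library, with 3 DMSO libraries in blue and 3 PD libraries in orange; the dashed line marks 10 fragments. NR3C2 reaches 54 to 72 fragments in PD, and NR1H4, NR1I2 and NR0B2 have 0 or 1 in each library.

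The effect of PD was tested for the 14400 genes whose mean reached 0.5 FPKM, by limma on log2(FPKM + 1), with Benjamini-Hochberg adjusted p-values. Genes were called if the adjusted p did not exceed 0.05, and a called gene that changed at least 2-fold is termed a DEG. Of the 25 tested receptors, 16 were called, 6 as higher and 10 as lower in PD. This is 64.0% of the receptors, against 58.1% of all tested genes, of which 31.9% were higher and 26.2% lower. The PD and DMSO libraries did not overlap for 16 receptors (64.0%), against 65.4% of all tested genes, with PD above in 35.6% and below in 29.9%. Only VDR was a DEG (4.0% of the receptors, against 3.61% of all tested genes, 2.04% higher and 1.57% lower), and 0 receptors fell by 2-fold at an adjusted or an unadjusted p under 0.05 by limma. Voom on fragments called VDR and NR3C2 as 2-fold higher and ESR1, tested only because DMSO was high, as 2-fold lower. Of the genes that voom tested 11.5% changed this much, 6.72% higher and 4.80% lower. The median log2 fold change was -0.11 for the receptors and 0.01 for all tested genes. The receptors' share of calls was thus near that of all genes. In bulk RNA, fewer cells that hold a transcript and less of it per cell cannot be told apart.

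**Figure D3:**
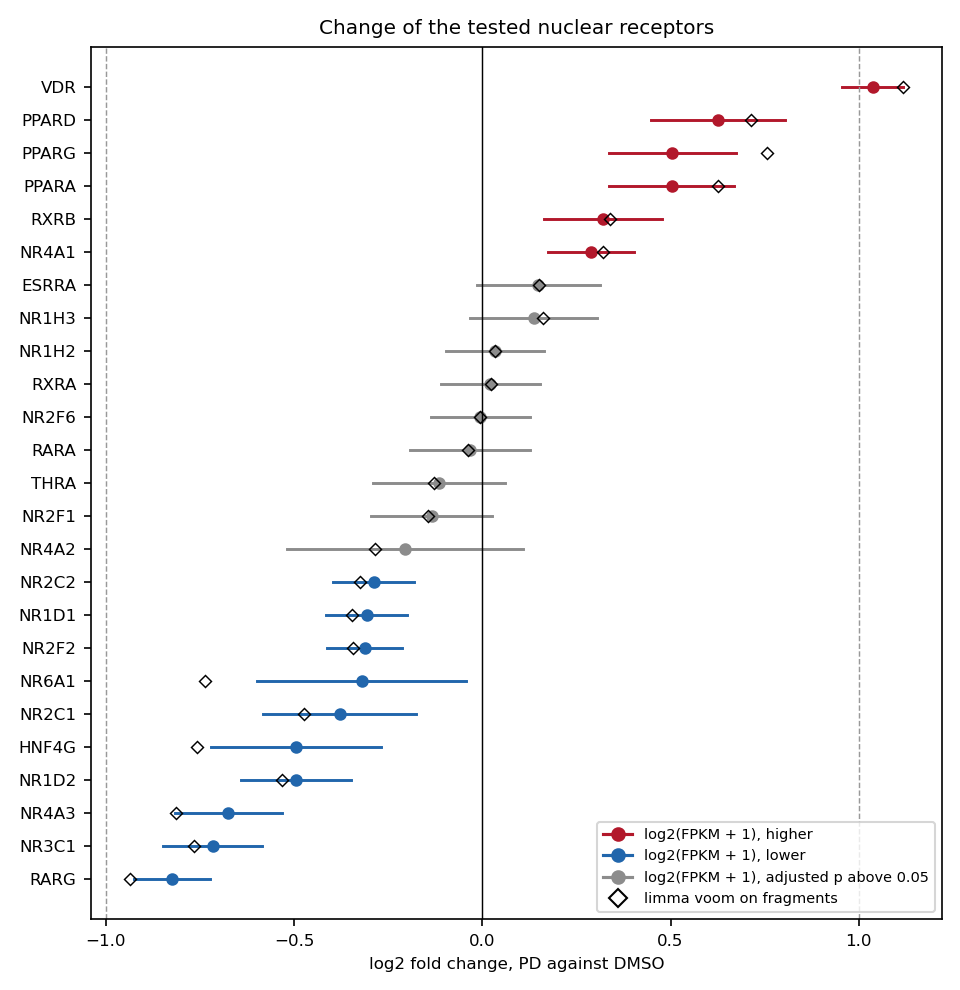
Log2 fold change (PD against DMSO, n = 3 libraries each) of the 25 tested receptors, with 95% confidence intervals from limma on log2(FPKM + 1); red and blue are called higher and lower, grey is not called, diamonds are voom on fragments and dashed lines mark 2-fold. VDR stands at 1.04, the PPARs at 0.50 to 0.63 and RARG at the low end at -0.82.

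VDR, the receptor of active vitamin D, had the largest change of the 25. The gene lies on chromosome 12 of GRCh38 from 47841537 to 47943048. VDR had 8.81, 8.99 and 8.88 FPKM in DMSO and 19.4, 19.4 and 19.2 FPKM in PD, so the groups stood far apart and each was tight. Its log2 fold change was 1.04 (standard error 0.03, adjusted p = 2.6e-06 by limma). This is close to the 2-fold threshold, and with upper quartile scaling it was 0.99. The enzymes that make and degrade its ligand were lower in PD. CYP27B1, which makes the active hormone, was at 3.61 ± 0.217 FPKM in DMSO and 2.18 ± 0.325 FPKM in PD (SD, n = 3 each), and fell by 0.54 on the log2 scale (adjusted p = 0.0015, limma). CYP24A1, which degrades the hormone and is a textbook VDR target, had 21, 21 and 18 fragments in DMSO and 4, 1 and 3 in PD. It was too low for the FPKM test and is named after its values had been seen, and its voom log2 fold change was -2.85 (standard error 0.48, adjusted p = 1.9e-05). CYP24A1 entered voom only through the DMSO libraries, where it was high. A gene at its PD level in both groups would not have been tested, so this p-value is no independent support for a fall.

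All 3 PPARs, the receptors of fatty acids and their derivatives, rose. PPARA, which turns on fatty acid oxidation, had 3.05, 3.73 and 3.29 FPKM in DMSO and 5.21, 4.92 and 5.37 FPKM in PD. PPARD, the most widely expressed of the PPARs, had 5.17, 5.41 and 6.16 FPKM in DMSO and 8.36, 9.56 and 9.55 FPKM in PD. PPARG, the adipocyte regulator, had 1.59, 1.59 and 1.46 FPKM in DMSO and 2.503, 2.86 and 2.49 FPKM in PD. No PD library overlapped a DMSO library in any of them, and the summed FPKM of the family was 9.81 to 10.9 in DMSO and 16.1 to 17.4 in PD. Their log2 fold changes were 0.50 (standard error 0.07, adjusted p = 0.0007) for PPARA, 0.63 (0.08, adjusted p = 0.00034) for PPARD and 0.51 (0.07, adjusted p = 0.00075) for PPARG by limma. On the fragment scale of voom the rise of PPARG, the lowest of them, was 0.76, since the pseudocount of 1 FPKM damps low genes. Their RefSeq starts differed in base composition. The 250 bases before the start were 84.4% G or C in PPARA, 70.8% in PPARD and 44.8% in PPARG. GGGCGG, on either strand, occurs at 6 places in PPARA and 3 in PPARD but not in PPARG, and 42.3% of all promoters hold it. PPARD and PPARG, which hold TGACG and AGGTCA respectively where PPARA holds neither, are shown 5′ to 3′, with capitals marking AGGTCA, the hexamer bound by many nuclear receptors, or TGACG, the core of the cAMP response element, on either strand. PPARD lies at chr6:35342308-35342557 and PPARG at chr3:12287118-12287367, both on the plus strand of GRCh38.p14.
PPARD: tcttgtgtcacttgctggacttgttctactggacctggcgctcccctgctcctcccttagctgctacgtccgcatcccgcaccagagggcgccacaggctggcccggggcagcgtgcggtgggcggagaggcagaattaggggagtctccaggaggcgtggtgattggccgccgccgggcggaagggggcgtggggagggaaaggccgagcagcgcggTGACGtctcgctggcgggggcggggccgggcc
PPARG: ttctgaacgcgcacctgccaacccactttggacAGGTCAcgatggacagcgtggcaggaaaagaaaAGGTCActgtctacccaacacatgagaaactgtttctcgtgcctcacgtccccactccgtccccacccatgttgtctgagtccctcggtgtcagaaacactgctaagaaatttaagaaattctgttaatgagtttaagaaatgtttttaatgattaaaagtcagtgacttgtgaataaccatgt
AGGTCA occurs 2 times in the PPARG stretch and in 12.1% of 27305 RefSeq promoters of this length. Of the 21 tested receptors with a promoter in the RefSeq table, 3 hold it and 5 hold TGACG, which 21.7% of all promoters hold. The annotated start need not be the one used in these cells, and no binding was measured.

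The shared partners of the heterodimers split. RXRB rose from 14.5, 15.9 and 17.5 FPKM in DMSO to 20.04, 19.4 and 20.9 FPKM in PD, a log2 fold change of 0.32 (standard error 0.07, adjusted p = 0.0048, limma). RXRA had 13.8, 13.8 and 15.7 FPKM in DMSO and 14.8, 14.6 and 14.4 FPKM in PD, and its log2 fold change of 0.02 had a 95% interval of -0.11 to 0.15. Of the RXRB exon bases 9.26% are shared with SLC39A7 on the opposite strand, which had 49.9 to 53.4 FPKM in DMSO and 61.2 to 66.4 FPKM in PD, and its part in the RXRB value was not tested. The LXRs, which sense oxysterols, were not called. NR1H2 (LXR beta) had 14.7, 15.8 and 16.2 FPKM in DMSO and 15.0, 16.3 and 16.7 FPKM in PD, with an interval of -0.10 to 0.16. NR1H3 (LXR alpha) had 5.39, 5.03 and 5.78 FPKM in DMSO and 5.93, 6.61 and 5.57 FPKM in PD, with an interval of -0.03 to 0.31.

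Among the retinoic acid receptors, RARG had the largest fall of all the tested receptors. RARG lies on chromosome 12 from 53210567 to 53232980. It had 10.1, 10.3 and 9.94 FPKM in DMSO and 5.27, 5.42 and 5.14 FPKM in PD, with no overlap. Its log2 fold change was -0.82 (standard error 0.04, adjusted p = 7.9e-06, limma). RARA, by contrast, had 5.97, 6.01 and 6.75 FPKM in DMSO and 5.64, 6.52 and 6.09 FPKM in PD, and its groups overlapped. Its log2 fold change of -0.03 had a 95% interval of -0.19 to 0.13. RARB was low, at 0.154 to 0.3004 FPKM over the 6 libraries. The summed FPKM of the family thus moved from 16.3 to 17.0 in DMSO to 11.2 to 12.1 in PD. THRA, the thyroid hormone receptor alpha, had 7.76, 9.32 and 8.87 FPKM in DMSO and 8.05, 7.33 and 8.34 FPKM in PD (adjusted p = 0.225, limma), and THRB had at most 16 fragments in a library.

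The glucocorticoid receptor NR3C1, which binds cortisol, fell from a place among the most abundant receptors. It lies on chromosome 5 from 143277931 to 143435512. It had 18.8, 19.3 and 17.5 FPKM in DMSO and 11.5, 10.2 and 11.0 FPKM in PD. The lowest DMSO library was well above the highest PD library, and the log2 fold change was -0.72 (standard error 0.06, adjusted p = 4.1e-05, limma).

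The REV-ERB receptors, which bind heme and repress the core clock gene BMAL1, fell together. NR1D1 (REV-ERB alpha) had 9.19, 8.72 and 9.19 FPKM in DMSO and 6.83, 7.29 and 7.21 FPKM in PD. NR1D2 (REV-ERB beta) had 15.5, 15.9 and 14.2 FPKM in DMSO and 11.3, 10.4 and 9.87 FPKM in PD. In both genes the groups did not overlap, with log2 fold changes of -0.31 (standard error 0.05, adjusted p = 0.00097) and -0.50 (standard error 0.06, adjusted p = 0.0004) by limma. NR1D1 and THRA overlap tail to tail on opposite strands, sharing 18.0% of the exon bases of NR1D1 and 6.45% of those of THRA, and the strand setting of the counting is not given in the sources used here. The ROR receptors, which compete with REV-ERB for the same sites, were low, with 14 to 30 fragments of RORA and 6 to 15 of RORB in a library.

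The NR4A receptors, products of immediate early genes that act without a known ligand in the cell, did not move as 1 family. NR4A1 rose from 8.59, 8.23 and 8.07 FPKM in DMSO to 9.88, 10.9 and 10.3 FPKM in PD, a log2 fold change of 0.29 (standard error 0.05, adjusted p = 0.0018, limma). NR4A3 fell from 5.93, 6.72 and 6.36 FPKM to 3.64, 3.75 and 3.40 FPKM, a log2 fold change of -0.67 (standard error 0.06, adjusted p = 7.9e-05, limma). The 95% intervals of the pair, 0.17 to 0.40 and -0.82 to -0.53, lay on opposite sides of 0. NR4A2 had 3.72, 3.49 and 3.83 FPKM in DMSO and 2.27, 3.24 and 3.82 FPKM in PD, and its PD libraries were so spread that they overlapped DMSO (adjusted p = 0.2255, limma). NR4A genes are known as targets of cAMP signalling, and the 250 bases before the RefSeq starts of the pair that moved apart are given 5′ to 3′, with TGACG on either strand in capitals. They lie at chr12:52022582-52022831 and chr9:99821635-99821884 on the plus strand of GRCh38.p14.
NR4A1: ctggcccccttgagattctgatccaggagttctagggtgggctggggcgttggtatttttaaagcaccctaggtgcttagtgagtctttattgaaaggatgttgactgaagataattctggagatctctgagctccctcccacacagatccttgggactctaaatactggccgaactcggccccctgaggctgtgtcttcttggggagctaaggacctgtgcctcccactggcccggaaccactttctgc
NR4A3: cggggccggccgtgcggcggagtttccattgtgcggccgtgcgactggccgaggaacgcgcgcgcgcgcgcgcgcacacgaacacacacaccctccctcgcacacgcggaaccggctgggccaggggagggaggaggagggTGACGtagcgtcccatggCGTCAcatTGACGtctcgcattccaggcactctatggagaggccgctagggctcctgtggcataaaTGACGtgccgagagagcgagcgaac
The NR4A3 stretch holds TGACG at 4 places that do not overlap. These letters are not in the NR4A1 stretch, but the annotated start need not be the one used in these cells. The stretch therefore does not show whether NR4A1 has such sites elsewhere. For NR4A2 no promoter sequence was available. Factor binding was not measured.

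The receptors of the NR2C, COUP-TF, ERR, HNF4 and NR6A groups were lower or not called. NR2C1 had 5.43, 4.34 and 4.26 FPKM in DMSO and 3.52, 3.29 and 3.24 FPKM in PD, and NR2C2 had 8.57, 9.05 and 8.58 FPKM in DMSO and 6.98, 6.75 and 7.18 FPKM in PD. Both are testicular receptors that bind direct repeats, and they fell by 0.38 (adjusted p = 0.0071) and 0.29 (adjusted p = 0.0012) on the log2 scale (limma). In the annotation 60.5% of the exon bases of NR2C2 are shared with MRPS25 on the opposite strand, which was at 12.8 to 13.3 FPKM in DMSO and 10.0 to 10.7 FPKM in PD, so the value of NR2C2 is uncertain. Of the COUP-TFs, which compete with HNF4 and RXR heterodimers for DNA, NR2F2 fell from 10.6, 11.3 and 11.0 FPKM to 8.81, 8.72 and 8.41 FPKM, by 0.31 on the log2 scale (adjusted p = 0.0006, limma). NR2F1 had 17.5, 19.6 and 18.6 FPKM in DMSO and 15.2, 17.2 and 18.0 FPKM in PD (adjusted p = 0.1325, limma). NR2F6 had 25.0, 23.5 and 27.0 FPKM in DMSO and 25.6, 23.9 and 25.5 FPKM in PD, with a 95% interval of -0.14 to 0.13 for its log2 fold change.
ESRRA had 27.2, 28.2 and 30.6 FPKM in DMSO and 28.9, 32.6 and 34.2 FPKM in PD, and the groups overlapped (log2 fold change 0.15, adjusted p = 0.102, limma). With voom its adjusted p was 0.0383, and 9.16% of its exon bases are shared with TRMT112 on the opposite strand, which was at 88.6 to 103 FPKM. HNF4G, the paralog of HNF4A and here the more abundant of the pair, had 2.52, 2.63 and 2.104 FPKM in DMSO and 1.42, 1.64 and 1.22 FPKM in PD, and fell by 0.49 on the log2 scale (adjusted p = 0.0034, limma). NR6A1, a germ cell factor, had 0.821, 1.01 and 1.21 FPKM in DMSO and 0.730, 0.440 and 0.671 FPKM in PD. Its adjusted p of 0.0499 by limma sat on the threshold, and without any 1 library other than DMSO replicate 1 it was 0.0544 to 0.146. With voom on fragments the log2 fold change of NR6A1 was -0.74 (adjusted p = 0.0018).

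The lists of receptor partners and targets are read against all tested genes, of which 31.9% were higher and 26.2% lower, with a median log2 fold change of 0.01. Shares of calls near these are no result about a list. The lists were chosen with earlier results of these data known, so shares far from these are not an independent result either. Of 17 coactivators, 3 were higher and 6 lower in PD, with a median log2 fold change of -0.04. NCOA7 was the only DEG among them, at 32.5 ± 3.65 FPKM in DMSO and 10.02 ± 0.209 FPKM in PD (SD, n = 3 each), a fall of 1.60 on the log2 scale. The arginine methyltransferase PRMT1 (-0.74) and PPRC1 (-0.62), a relative of PGC-1, also fell, while the acetyltransferase KAT2B rose (0.64). Of 12 tested corepressors, 3 were higher and 6 lower (median -0.18), with falls of CIR1 (-0.63) and TBL1XR1 (-0.32), and a rise of HDAC3 (0.40). Among 14 chaperones of the HSP90 cycle, 7 were higher and 4 lower (median 0.16). The heat shock proteins DNAJB1 (0.97) and HSPA8 (0.75) and the glucocorticoid receptor cochaperone FKBP5 (0.45) rose and the cochaperone BAG1 fell (-0.66). Of 11 tested enzymes that make or remove ligands, 5 were higher and 2 lower (median 0.06). SRD5A1 (0.61), a steroid 5-alpha reductase, RDH10 (0.56), which oxidizes retinol, and the peroxisomal enzyme HSD17B4 (0.56) rose. All of these passed an adjusted p of 0.05 by limma. The values in brackets, here and below, are log2 fold changes of FPKM + 1, which understate changes of genes near 1 FPKM.

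Among the clock partners of REV-ERB, 5 of 13 tested genes were lower and 1 higher. TEF (-0.75), PER2 (-0.59) and PER3 (-0.52) fell most, followed by NFIL3 (-0.27), and CRY2, the gene that was higher, was at 0.13 with an adjusted p of 0.0437 (limma), a call that was lost in most alternatives. CRY2 is named here after its values were seen. Of 8 tested LXR targets, 8 were higher, against 31.9% of all tested genes, with a median log2 fold change of 0.73. They include the desaturase SCD, at 291 ± 14.8 FPKM in DMSO and 623 ± 21.9 FPKM in PD (SD, n = 3 each), the cholesterol exporter ABCG1 (0.86) and fatty acid synthase FASN (0.83). SCD and FASN are also known targets of SREBP factors. Of 12 tested PPAR targets, 8 were higher and 0 lower (with upper quartile scaling 1 was lower). On the log2(FPKM + 1) scale the lipid droplet protein PLIN2 (0.77), ANGPTL4 (0.72) and EHHADH (0.49) rose most. Mean FPKM went from 3.12 to 6.02 in PLIN2, from 0.638 to 1.71 in ANGPTL4 and from 0.553 to 1.18 in EHHADH. By the ratio of these means ANGPTL4 and EHHADH rose more than PLIN2. Of 14 ERR targets, 7 were higher and 3 lower, among them the deacetylase SIRT3 (0.58) and the citric acid cycle enzymes MDH2 (0.33) and SDHB (0.27).
Of 8 tested glucocorticoid receptor targets, 5 were higher and 3 lower, against 31.9% and 26.2% of all tested genes. The metallothionein MT2A (1.02), ERRFI1 (0.52), FKBP5 (0.45) and TSC22D3 (0.44) rose. The 3 that fell were KLF9 (-0.31), PER1 (-0.26) and SGK1 (-0.25), of which PER1 and SGK1 are named after their values were seen. Of the 10 genes of the estrogen receptor list 4 were tested and these 4 were higher, against 31.9% of all tested genes, while ESR1 and ESR2 had at most 15 fragments in a library. They were the lysosomal protease CTSD (1.31), the carbonic anhydrase CA12 (0.80), GREB1 (0.68) and XBP1 (0.45), a factor of the unfolded protein response. Mean GREB1 was 0.543 FPKM in DMSO and 1.47 FPKM in PD. Of 7 tested retinoic acid targets, 3 were lower and 1 higher. The retinol transporter STRA6 (-0.76), CYP26B1 (-0.44), which degrades retinoic acid, and CRABP2 (-0.36), which carries it, fell, and the transglutaminase TGM2 (0.67) rose. Of the targets of the liver receptors, 2 of 16 reached the minimum, ABCB1 (0.80) and SLC51B (0.36), and both were higher. However, 1 of these 2 lost its call without PD replicate 2 and with no filter on low values. Mean ABCB1 was 0.694 FPKM in DMSO and 1.95 FPKM in PD. Of the 10 targets of VDR and the thyroid hormone receptors 3 were tested, with ME1 higher (0.40) and KLF9 lower (-0.31). Exons of CTSD, HSPA8 and PER3 overlap other genes over at least 10.7% of their bases, so their values are less certain. The same holds for CEBPA (25.3% with 1 other gene), NR1H2 (22.1%), VIM (12.7%) and RARA (11.7%), whose values are given above.

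**Figure D4:**
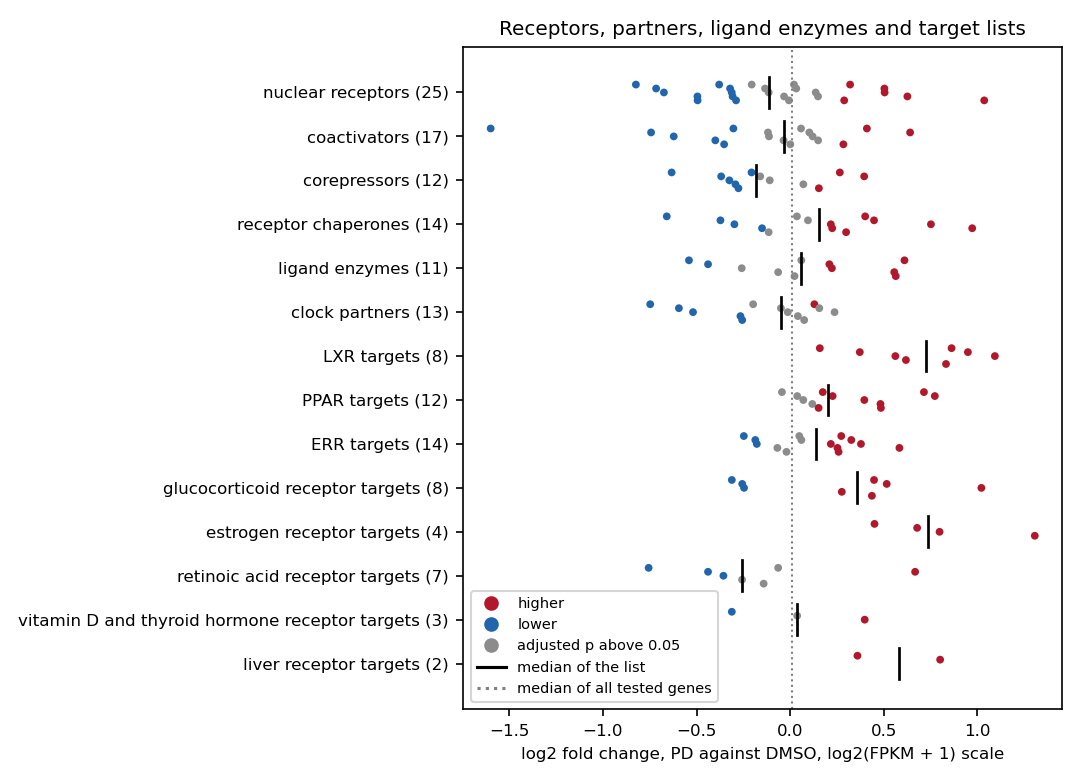
Log2 fold change (PD against DMSO, n = 3 libraries each, log2(FPKM + 1) scale) of every tested gene of each list, with the number tested in brackets; red and blue points are called higher and lower, grey points are not called, black bars are list medians and the dotted line is the median of all tested genes. All 8 LXR targets lie to the right of 0, while the 25 receptors lie on both sides.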

How the data were processed

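RNA of 3 PD-treated and 3 DMSO-treated dishes was sequenced. The authors used HISAT2 for alignment to hg38 and HTSeq 0.6.0 for counting, and deposited FPKM in 1 table. Symbols came from GENCODE release 44, which matched 28161 of 28563 identifiers. The receptors and all other lists were chosen with earlier results of these data known.

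A model without covariates (limma 3.58.1, trend on mean level, R 4.3.3) was fitted on log2(FPKM + 1) over the 14400 genes whose mean reached 0.5 FPKM. The pseudocount understates changes of low genes. Whole fragments were worked back from FPKM by GENCODE exon length (12772 genes) or otherwise by a length that gave whole numbers in all libraries (15791 genes), within 0.0001 fragments. Alternatives were a pseudocount of 0.1, no filter, the replicate number as a block, upper quartile and median-of-ratios scaling, leaving out each library, and voom on genes with at least 10 fragments in 3 libraries. On simulated data for this comparison, with 14461 genes tested, limma called 97 of 100 genes changed 2.5-fold, 100 of 100 changed 4-fold, and 5 unchanged genes as DEGs. At the adjusted p alone it called 15 unchanged genes. The changed genes were drawn from those with a mean of at least 5 FPKM. Recovery at lower levels, where several tested receptors lie, was therefore not checked. Neither was recovery of changes under 2.5-fold, such as those of the called receptors.

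All 25 expressed receptors are named with each value, and up to 4 genes of each other list by size among called genes of at least 1 FPKM, some of which are not reported here. Promoters came from RefSeq (GRCh38.p14), which had 34 of the 39 receptors. Counting error grows as fragments fall, and tested receptors had 55 to 2986 fragments in a library.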

Additional observations from a re-analysis of the deposited data

How the results depend on the processing

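The numbers of receptors called higher (6) and lower (10) stayed within 6 to 8 and 9 to 11 under all 12 alternatives. Of the 25 tested receptors, 19 kept their direction and their side of the threshold in all of them. The count of receptors at least 2-fold higher was 0 with upper quartile scaling, where VDR was at 0.99, and 2 with voom, which also tests NR3C2. The count at least 2-fold lower was 1 with voom, which tests ESR1 only because its DMSO libraries reached the minimum. The direction of 4 receptors that were not called turned. RARA ranged from -0.0767 to 0.0169 over the fits that left out 1 library, NR1H2 from -0.0054 to 0.0766, RXRA from -0.0099 to 0.0800 and NR2F6 from -0.0531 to 0.0434. With upper quartile scaling NR1H2 was at -0.0111 and RXRA at -0.0230, and with median-of-ratios scaling they were at -0.0003 and -0.0122. ESRRA passed the threshold without PD replicate 1 (0.22, adjusted p = 0.0206), with voom and with the replicate block, and NR6A1 lost its call in 8 of the 12 alternatives. The replicate numbers did not pair the libraries, since deviations of same-numbered libraries correlated at -0.03, -0.0046 and 0.09. With the replicate block, 7 receptors were higher and 9 lower. The cause of these shifts was not tested. Receptors under 10 fragments are too shallow for a fold change.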
